A study of Mus musculus with 47 samples.

Results

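The difference between female and male kidney was compared between 2 inbred mouse strains, NZO/HlLtJ and C57BL/6J. For each autosomal gene, the female-minus-male difference in NZO/HlLtJ was set against the female-minus-male difference in C57BL/6J, each taken as the mean over both diets. The comparison used 32 of the 47 RNA-seq libraries of the study, 16 from each strain, and tested 18195 genes on chromosomes 1 to 19. The 8 groups held 4 libraries each: NZO/HlLtJ females and males fed 44% fat with fiber, NZO/HlLtJ females and males fed 10% fat with fiber, and the matching 4 groups of C57BL/6J. All mice were labelled wild type without other treatment, began their diet at 6 weeks of age and gave tissue at 15 weeks. The 15 libraries of the remaining strain, CAST/EiJ, entered the shared estimate of spread and are quoted where a gene's difference in them adds context. The labels call the tissue metanephros, and the 12 proximal tubule markers together held 15500 to 21000 CPM (counts scaled to a common library total) in the 32 libraries. Library totals ran from 34.4 M to 58.4 M counts, and mitochondrial genes took 10.7% to 15.5% of them.

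The mouse kidney is among the most sexually dimorphic organs outside the reproductive tract. Androgens acting on the proximal tubule drive much of this dimorphism, which covers transporters, steroid-metabolising enzymes and enzymes that conjugate drugs and hormones. NZO mice are a polygenic model of obesity in which males in particular are prone to diabetes, whereas C57BL/6J is the common reference strain. The labels do not say that every library is its own animal, and the p-values therefore speak only of variation among these libraries.

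Kidney sex differences were largely shared by the strains, and a minority of genes differed. The female-minus-male difference was called in 9090 autosomal genes (50%) in NZO/HlLtJ and in 8708 (47.9%) in C57BL/6J, and males were higher in 24.7% and 22.9% of all genes tested, in that order. Among the 6715 genes called in both strains, 6634 had the same direction (98.8%), and 3506 of these were larger in NZO/HlLtJ (52.8%). Positions are on GRCm38, as the authors' annotation gives them. The strain difference itself, which is the tested quantity below, was called in 916 genes (5.03%) at an adjusted p under 0.05 in edgeR's quasi-likelihood test. The female-minus-male difference was higher in NZO/HlLtJ in 479 of them (2.63%) and lower in 437 (2.4%). In 229 of the 916 the strain difference was at least 1 on the log2 scale, and in 434 it was under 0.5.

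Each called gene was then described by its sex difference in the separate strains. In 197 genes the sex difference was called in C57BL/6J and not in NZO/HlLtJ (lost), and in 201 it was called in both with the same sign but smaller in NZO/HlLtJ (reduced). In 211 genes it was called in NZO/HlLtJ and not in C57BL/6J (gained), and in 227 it was larger in NZO/HlLtJ with the same sign (enlarged). In 80 genes the sexes changed places (reversed). Lost genes had a median absolute sex difference of 0.0742 on the log2 scale in NZO/HlLtJ and 0.487 in C57BL/6J, and gained genes had 0.531 in NZO/HlLtJ and 0.0831 in C57BL/6J. A sex difference that missed the threshold was not always shown to be small. The 95% interval lay within 0.5 of zero in NZO/HlLtJ for 150 of the 197 lost genes, and in C57BL/6J for 159 of the 211 gained genes.

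**Figure D1:**
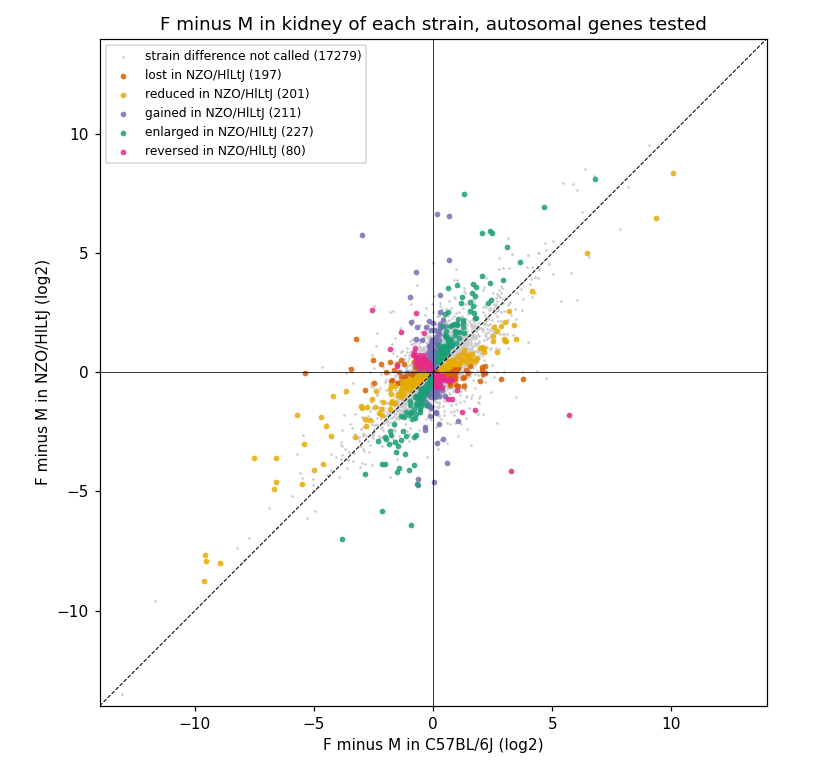
Female-minus-male log2 difference of each autosomal gene tested in NZO/HlLtJ (vertical axis) against C57BL/6J (horizontal axis); grey points are genes without a called strain difference, coloured points the 5 classes of called genes, and the dashed line marks equal differences. Most genes lie along the line (Pearson 0.75 over 18195 genes), lost genes lie near the horizontal axis and gained genes near the vertical axis.

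Enzymes that conjugate or reduce steroids and drugs held many of the called genes. UDP-glucuronosyltransferases attach glucuronic acid to bilirubin, steroids and drugs so that they can be excreted. Of 16 Ugt genes tested, 12 were called, 3 with a higher and 9 with a lower female-minus-male difference in NZO/HlLtJ, against 5.03% of all autosomal genes. The aldo-keto reductase 1 family, which holds hydroxysteroid dehydrogenases, had 10 of 15 called, 2 higher and 8 lower. Many of each family's calls lay in a chromosomal group of neighbouring genes. On chromosome 1, from 87945119 to 88426438 (GRCm38), 9 of 16 genes tested were called, 8 of them lower: Usp40, Ugt1a10, Ugt1a9, Ugt1a7c, Ugt1a6b, Ugt1a6a, Ugt1a2 and Ugt1a1, with Spp2 as the higher one. On chromosome 13, from 4049011 to 4609174, 9 of 10 were called, 7 of them lower: Akr1c14, Akr1c18, Akr1c13, Akr1c19, Akr1c12, Akr1c20 and Akr1c21, with Akr1c6 and Akr1e1 higher. Over all autosomes, 334 called genes (36.5%) had another called gene within 200 kb, and so did 4787 genes without a call (27.7%).

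Ugt1 genes share their last exons and overlap on the chromosome, so that reads cannot always be assigned to 1 of them. In the GENCODE M21 transcripts, 72.9% of the 31-base words of Ugt1a10 also occurred in other genes, 53.0% of those of Ugt1a6a and 65.1% of those of Ugt1a2, and their values are uncertain to that extent. Ugt1a10 (chr1:88055388-88219004) stood at 68.4 to 102 CPM (median 84.1) in NZO/HlLtJ females and 86.1 to 147 CPM (median 100) in NZO/HlLtJ males. In C57BL/6J, Ugt1a10 had 7.23 to 17.8 CPM (median 12.4) in females and 0.445 to 1.42 CPM (median 0.738) in males. The C57BL/6J sexes did not overlap, the NZO/HlLtJ sexes did, and every NZO/HlLtJ library lay above every C57BL/6J library. The strain difference was -4.07 ± 0.26 (SE, log2; edgeR adjusted p = 1.06e-13), from a sex difference of -0.29 in NZO/HlLtJ and 3.78 in C57BL/6J. Ugt1a6a (chr1:88134809-88218997), a further gene of the locus, reversed. It had 8.69 to 10.9 CPM (median 10.3) in NZO/HlLtJ females and 18.8 to 26 CPM (median 22.1) in NZO/HlLtJ males, against 13 to 20.7 CPM (median 16) in C57BL/6J females and 8.26 to 10.3 CPM (median 9.4) in C57BL/6J males. The sexes were apart in both strains and in opposite order, with a strain difference of -1.92 ± 0.11 (adjusted p = 1.83e-16). Ugt1a2 (chr1:88200601-88218997) was strongly female-biased in both strains. Its level was 711 to 886 CPM (median 821) in NZO/HlLtJ females and 1.51 to 3.74 CPM (median 2.3) in NZO/HlLtJ males, against 670 to 985 CPM (median 779) in C57BL/6J females and 0.233 to 1.31 CPM (median 0.661) in C57BL/6J males. The females of the strains overlapped and the males did not, and the strain difference was -1.71 ± 0.39 (adjusted p = 0.00472, and 0.000103 to 0.744 over 41 alternatives). The enzyme Ugt1a9, named here for its place in the group after its values were seen, had -1.80 in NZO/HlLtJ and 5.69 in C57BL/6J (edgeR adjusted p = 1.21e-10). It averaged under 1 in log2 CPM, below the floor for named genes. Of the 31-base words of Ugt1a10, 61.4% occurred in Ugt1a9, so the low counts of Ugt1a9 are uncertain. Ugt1a7c, male-biased in both strains, had a sex difference of -3.10 in NZO/HlLtJ and -1.46 in C57BL/6J (adjusted p of the strain difference = 8.98e-12).

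Akr1c21 (chr13:4574075-4586541) encodes a 3-alpha- and 17-alpha-hydroxysteroid dehydrogenase, and its male bias was enlarged. Its level was 5.61 to 14.8 CPM (median 8.75) in NZO/HlLtJ females and 593 to 913 CPM (median 739) in NZO/HlLtJ males. In C57BL/6J, Akr1c21 had 481 to 650 CPM (median 563) in females and 739 to 1220 CPM (median 1050) in males. NZO/HlLtJ females lay far below the other 3 groups, while the males of the strains overlapped. The sex difference was -6.40 in NZO/HlLtJ and -0.91 in C57BL/6J, a strain difference of -5.48 ± 0.15 (edgeR adjusted p = 9.64e-27), and CAST/EiJ had -10.81. Akr1c18 (chr13:4132615-4150654), a 20-alpha-hydroxysteroid dehydrogenase that inactivates progesterone, was reduced. It had 65.2 to 147 CPM (median 114) in NZO/HlLtJ females and 29.5 to 48.6 CPM (median 38.9) in NZO/HlLtJ males, against 49.5 to 274 CPM (median 164) in C57BL/6J females and 9.9 to 17.8 CPM (median 13.9) in C57BL/6J males. Here the females of the strains overlapped and the males did not, with a strain difference of -2.04 ± 0.29 (adjusted p = 8.48e-06). Akr1c19 reversed, with a sex difference of -0.72 in NZO/HlLtJ and 0.99 in C57BL/6J. Akr1c13 was gained, with -1.02 in NZO/HlLtJ and -0.11 in C57BL/6J, and 33.7% of its 31-base words occurred in other genes.

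**Figure D2:**
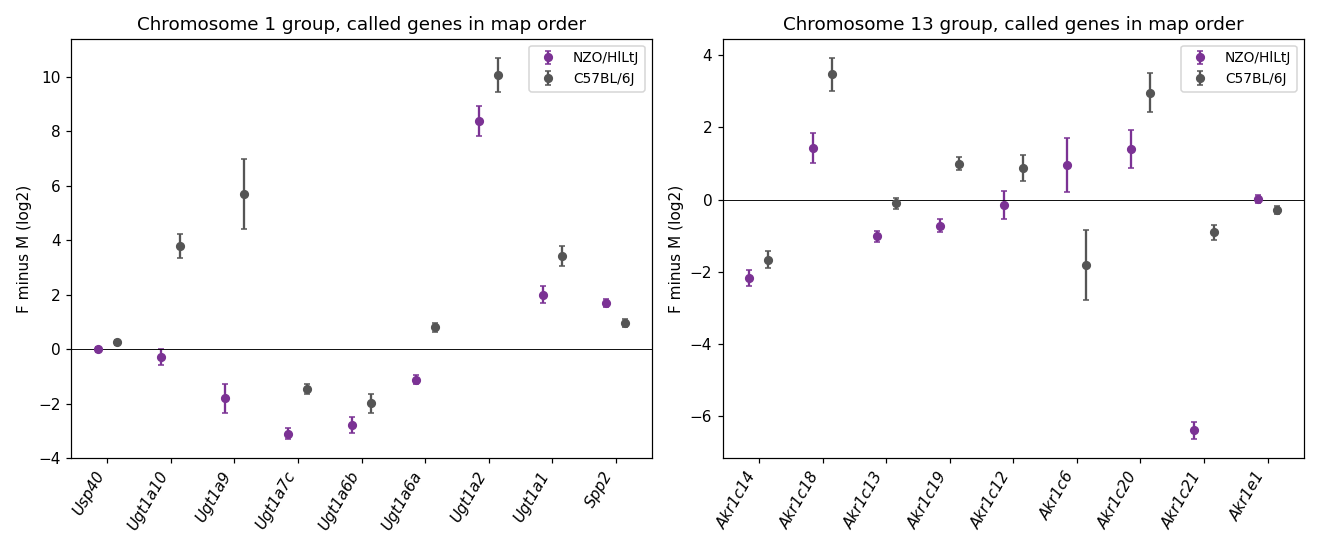
Female-minus-male log2 difference of the called genes in the chromosome 1 group (left) and the chromosome 13 group (right), in map order, with 95% intervals; purple points are NZO/HlLtJ and grey points C57BL/6J. Ugt1a10 sits near zero in NZO/HlLtJ and at 3.78 in C57BL/6J, and Akr1c21 at -6.40 in NZO/HlLtJ and -0.91 in C57BL/6J.

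Most called genes of these groups had a lower female-minus-male difference in NZO/HlLtJ, though their levels did not shift alike in each sex. The promoters of the 5 named genes in the groups are shown, from 250 bases before to 50 after the RefSeq start (300 bases each, GRCm38.p6, 5′ to 3′ on the gene's strand). Capitals mark AGAACA, the short repeat bound by a single partner of an androgen or glucocorticoid receptor pair, on either strand (TGTTCT on the other), and TTCNNNGAA, the core letters bound by STAT factors. Ugt1a10 lies at chr1:88055161-88055460 (+), Ugt1a6a at chr1:88134559-88134858 (+), Ugt1a2 at chr1:88200361-88200660 (+), Akr1c18 at chr13:4150597-4150896 (-) and Akr1c21 at chr13:4573825-4574124 (+).
Ugt1a10: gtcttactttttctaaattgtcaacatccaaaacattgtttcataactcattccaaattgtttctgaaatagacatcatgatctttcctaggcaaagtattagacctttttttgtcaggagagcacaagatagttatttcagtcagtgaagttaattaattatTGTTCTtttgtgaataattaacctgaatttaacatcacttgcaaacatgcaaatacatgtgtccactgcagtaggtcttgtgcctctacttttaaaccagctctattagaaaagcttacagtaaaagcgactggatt
Ugt1a6a: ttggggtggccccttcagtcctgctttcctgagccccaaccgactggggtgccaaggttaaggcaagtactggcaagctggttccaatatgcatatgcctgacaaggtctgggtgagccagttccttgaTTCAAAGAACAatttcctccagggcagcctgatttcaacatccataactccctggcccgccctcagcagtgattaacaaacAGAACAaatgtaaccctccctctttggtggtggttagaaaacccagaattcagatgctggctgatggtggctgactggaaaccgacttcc
Ugt1a2: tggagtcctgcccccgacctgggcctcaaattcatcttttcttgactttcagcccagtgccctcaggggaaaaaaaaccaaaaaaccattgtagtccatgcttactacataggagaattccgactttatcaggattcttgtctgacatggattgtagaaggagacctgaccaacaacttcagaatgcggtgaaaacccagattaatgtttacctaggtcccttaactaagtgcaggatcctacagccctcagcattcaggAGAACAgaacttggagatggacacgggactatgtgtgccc
Akr1c18: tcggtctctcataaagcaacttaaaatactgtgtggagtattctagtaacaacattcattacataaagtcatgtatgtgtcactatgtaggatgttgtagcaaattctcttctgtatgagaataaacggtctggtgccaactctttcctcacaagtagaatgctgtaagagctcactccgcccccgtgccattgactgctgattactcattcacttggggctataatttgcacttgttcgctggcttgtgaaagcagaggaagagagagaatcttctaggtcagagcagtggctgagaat
Akr1c21: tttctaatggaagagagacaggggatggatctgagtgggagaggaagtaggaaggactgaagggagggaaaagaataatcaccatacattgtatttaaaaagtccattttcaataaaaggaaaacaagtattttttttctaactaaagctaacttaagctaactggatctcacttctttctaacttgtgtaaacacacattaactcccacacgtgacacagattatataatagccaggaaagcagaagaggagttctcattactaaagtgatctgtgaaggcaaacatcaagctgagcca
AGAACA occurred 1 time in the window of Ugt1a10, 2 times in that of Ugt1a6a, where 1 copy overlaps the single TTCNNNGAA, and 1 time in that of Ugt1a2. Neither Akr1c window holds either motif. Windows were found for 12025 autosomal genes tested, and AGAACA was in 1560 of them (13%), against 91 of the 649 called genes with a window (14%). TTCNNNGAA was in 40 of the 649 (6.16%), against 7.24% of all. The full palindrome (AGAACA, NNN and TGTTCT joined) was in none of the 649 and in 1 window of all, and the HNF1 site (GTTAAT, N and ATTAA joined) was in 2 of the 649 and in 6 of all. These are matches of letters in a short window. They are not evidence of binding.

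In the named lost genes with a female bias in C57BL/6J, the ranges of NZO/HlLtJ females and males overlapped. Elovl2 (chr13:41182495-41220405), an elongase of long polyunsaturated fatty acids, had 234 to 309 CPM (median 265) in NZO/HlLtJ females and 233 to 295 CPM (median 266) in NZO/HlLtJ males. In C57BL/6J, Elovl2 had 68.5 to 101 CPM (median 85.6) in females and 16.3 to 21.3 CPM (median 18.4) in males. The NZO/HlLtJ sexes overlapped almost completely, the C57BL/6J sexes were apart, and both NZO/HlLtJ groups lay above both C57BL/6J groups. Its sex difference in NZO/HlLtJ had a 95% interval of -0.13 to 0.12, and the strain difference was -2.19 ± 0.09 (SE; edgeR adjusted p = 5.59e-22). Cpb2 (chr14:75242287-75283551), a carboxypeptidase that slows the breakdown of fibrin clots, ran at 27.9 to 37.5 CPM (median 33) in NZO/HlLtJ females and 25.3 to 43.1 CPM (median 33.8) in NZO/HlLtJ males, against 1.57 to 4.54 CPM (median 3.17) in C57BL/6J females and 0.276 to 0.999 CPM (median 0.647) in C57BL/6J males. It showed the same order of groups as Elovl2, with a strain difference of -2.15 ± 0.17 (adjusted p = 3.47e-12). Hao2 (chr3:98874521-98893239), a peroxisomal hydroxyacid oxidase, differed in that females of the strains were closer. It had 1020 to 1260 CPM (median 1110) in NZO/HlLtJ females and 733 to 1140 CPM (median 984) in NZO/HlLtJ males, against 803 to 966 CPM (median 879) in C57BL/6J females and 83.9 to 275 CPM (median 197) in C57BL/6J males. The NZO/HlLtJ males reached lower than the females, the C57BL/6J males were apart below every other group, and the strain difference was -1.90 ± 0.21 (adjusted p = 4.3e-08). Hao2 was also female-biased in CAST/EiJ, by 2.54.

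Among the lost genes with a male bias in C57BL/6J, no single order of groups held. Ugt2b5 (chr5:87124960-87140318), another glucuronosyltransferase, had 0.164 to 0.626 CPM (median 0.48) in NZO/HlLtJ females and 0.107 to 0.529 CPM (median 0.302) in NZO/HlLtJ males. In C57BL/6J, Ugt2b5 had 0.384 to 1.51 CPM (median 0.896) in females and 3.16 to 5.46 CPM (median 5.15) in males. The C57BL/6J males stood above all other groups, and the strain difference was 3.05 ± 0.32 (adjusted p = 3.48e-09). Of this gene's sequence, 56.4% of the 31-base words occurred in other genes. Bcat1 (chr6:144993835-145076184), the cytosolic transaminase of branched-chain amino acids, had 18.3 to 48.7 CPM (median 34.4) in NZO/HlLtJ females and 16.6 to 67.3 CPM (median 25.2) in NZO/HlLtJ males, against 6.53 to 14 CPM (median 10.3) in C57BL/6J females and 30.2 to 61.4 CPM (median 49.3) in C57BL/6J males. The males of the strains overlapped, and C57BL/6J females were lower than every other group. Its strain difference was 2.53 ± 0.25 (adjusted p = 3.84e-09), and in CAST/EiJ it was female-biased by 2.92. Rex2 (chr4:147021850-147060794) had 1.35 to 2.37 CPM (median 1.88) in NZO/HlLtJ females and 1.22 to 2.43 CPM (median 1.73) in NZO/HlLtJ males, against 0.0611 to 0.424 CPM (median 0.192) in C57BL/6J males. In C57BL/6J females, 4 of 8 libraries were at 0 and the highest was 0.0547 CPM. The strain difference was 3.55 ± 0.52 (adjusted p = 4.47e-06), but 94.3% of the 31-base words of Rex2 occurred in other genes so its counts are uncertain. Adh7 (chr3:138217760-138233382), an alcohol dehydrogenase that acts on retinol, had 0.815 to 5.1 CPM (median 1.11) in NZO/HlLtJ females and 1.23 to 3.14 CPM (median 2.18) in NZO/HlLtJ males, against 0.38 to 0.746 CPM (median 0.547) in C57BL/6J females and 2.17 to 7.02 CPM (median 3) in C57BL/6J males. The sexes overlapped in NZO/HlLtJ and were apart in C57BL/6J. Its strain difference of 2.03 ± 0.52 (adjusted p = 0.0138) was not called without replicate 2 of the NZO/HlLtJ females on 44% fat (1.47, edgeR adjusted p = 0.052), and its adjusted p ran from 0.000955 to 0.826 over 41 alternatives.

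Reduced genes kept their direction. Ugt2b37 (chr5:87240493-87254804), a glucuronosyltransferase, was male-biased in both strains, with 0.159 to 0.521 CPM (median 0.299) in NZO/HlLtJ females and 2.19 to 5.76 CPM (median 3.77) in NZO/HlLtJ males. In C57BL/6J, Ugt2b37 had 1.02 to 1.85 CPM (median 1.46) in females and 142 to 346 CPM (median 282) in males. All 4 groups were apart. The strain difference was 3.95 ± 0.50 (SE; edgeR adjusted p = 6.78e-07), with 34.4% of its 31-base words shared with other genes. Angptl7 (chr4:148495183-148500460), an angiopoietin-like secreted protein, had 54.7 to 112 CPM (median 92.7) in NZO/HlLtJ females and 97.2 to 235 CPM (median 146) in NZO/HlLtJ males, against 0.556 to 1.32 CPM (median 0.689) in C57BL/6J females and 4.41 to 21.5 CPM (median 8.97) in C57BL/6J males. Both NZO/HlLtJ groups were above both C57BL/6J groups, and the strain difference was 2.88 ± 0.41 (adjusted p = 6.98e-06). Padi2 (chr4:140906344-140952586), which converts arginine residues to citrulline, had 10.7 to 16.3 CPM (median 13.4) in NZO/HlLtJ females and 4.84 to 10.6 CPM (median 7.68) in NZO/HlLtJ males, against 6.65 to 11.5 CPM (median 8.41) in C57BL/6J females and 0.893 to 1.63 CPM (median 1.29) in C57BL/6J males. The sexes were apart in both strains, and the strain difference was -1.85 ± 0.18 (adjusted p = 2.57e-10). Hrg (chr16:22951072-22961656), a histidine-rich plasma glycoprotein, had 0.0758 to 0.485 CPM (median 0.192) in NZO/HlLtJ females and 1.84 to 3.61 CPM (median 2.46) in NZO/HlLtJ males, against 0.0365 to 0.301 CPM (median 0.0847) in C57BL/6J females and 7.06 to 21.7 CPM (median 10.7) in C57BL/6J males. The sexes were apart in both strains and the females of the strains overlapped. Its strain difference of 2.99 ± 0.79 (adjusted p = 0.0188) missed the threshold without replicate 1 (2.90, adjusted p = 0.0506) or replicate 2 (2.85, adjusted p = 0.068) of the NZO/HlLtJ females on 10% fat. Its adjusted p ran from 1.81e-08 to 0.542 over 41 alternatives.

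Of the 4 named gained genes with a female bias in NZO/HlLtJ, B4galnt2 (chr11:95865943-95914891) had the largest strain difference. It encodes a glycosyltransferase that adds N-acetylgalactosamine to surface glycans. Its level was 3.1 to 12.4 CPM (median 7.95) in NZO/HlLtJ females and 0.023 to 0.188 CPM (median 0.0602) in NZO/HlLtJ males. In C57BL/6J, B4galnt2 had 0.02 to 0.185 CPM (median 0.0831) in females and 0.0222 to 0.271 CPM (median 0.0608) in males. The NZO/HlLtJ females were apart from the other 3 groups, which overlapped. The strain difference was 6.51 ± 1.13 (SE; edgeR adjusted p = 0.00012), and CAST/EiJ was female-biased by 6.21. Col23a1 (chr11:51289920-51583918), a transmembrane collagen, had 6.58 to 10.1 CPM (median 8.11) in NZO/HlLtJ females and 1.89 to 2.9 CPM (median 2.45) in NZO/HlLtJ males, against 2.34 to 4.57 CPM (median 3.5) in C57BL/6J females and 2.66 to 3.77 CPM (median 3.35) in C57BL/6J males. The same group stood apart, and the strain difference was 1.74 ± 0.17 (adjusted p = 8.9e-10). CAST/EiJ was female-biased by 1.22 for Col23a1. Pnpla3 (chr15:84167816-84189512), a lipid droplet protein of the patatin family, had 1.71 to 3.47 CPM (median 2.43) in NZO/HlLtJ females and 0.235 to 0.967 CPM (median 0.748) in NZO/HlLtJ males, against 0.854 to 2.07 CPM (median 1.43) in C57BL/6J females and 0.658 to 2.08 CPM (median 1.07) in C57BL/6J males. Its C57BL/6J sexes overlapped, its NZO/HlLtJ sexes did not, and the strain difference was 1.57 ± 0.27 (adjusted p = 9.55e-05). In CAST/EiJ the sex difference of Pnpla3 was 0.13 and was not called.

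Dock2 (chr11:34226815-34783892), a Rac activator best known from blood cells, had 8.72 to 16 CPM (median 10.7) in NZO/HlLtJ females and 1.82 to 3.71 CPM (median 2.59) in NZO/HlLtJ males, against 2.85 to 4.05 CPM (median 3.42) in C57BL/6J females and 2.41 to 7 CPM (median 3.15) in C57BL/6J males. Its NZO/HlLtJ females were apart from the 3 other groups, and the strain difference was 2.11 ± 0.21 (SE; edgeR adjusted p = 1.93e-09). In CAST/EiJ, Dock2 was also female-biased, by 2.60, with 13.5 to 21.1 CPM in females. Ptpn22 (chr3:103859795-103912247), a phosphatase best known from lymphocytes, was enlarged, with 5.24 to 8.51 CPM (median 6.25) in NZO/HlLtJ females and 78.6 to 187 CPM (median 102) in NZO/HlLtJ males, against 1.11 to 2.07 CPM (median 1.55) in C57BL/6J females and 2.39 to 4.84 CPM (median 3.14) in C57BL/6J males. All 4 of its groups were apart, and the strain difference was -3.11 ± 0.27 (adjusted p = 2.03e-10). In CAST/EiJ the sex difference of Ptpn22 was -1.79.

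Immune markers were set beside both genes. The 13 macrophage markers summed to 89.1 to 203 CPM (median 99.7) in NZO/HlLtJ females and 90.6 to 123 CPM (median 116) in NZO/HlLtJ males, against 120 to 148 CPM (median 133) in C57BL/6J females and 113 to 190 CPM (median 120) in C57BL/6J males. The 12 T and NK cell markers summed to 5.4 to 22 CPM in NZO/HlLtJ females and 4.22 to 8.54 CPM in NZO/HlLtJ males, against 5.32 to 7.14 CPM in C57BL/6J females and 4.98 to 9.25 CPM in C57BL/6J males. The 12 B and plasma cell markers summed to 126 to 463 CPM in NZO/HlLtJ females and 116 to 197 CPM in NZO/HlLtJ males, against 110 to 190 CPM in C57BL/6J females and 125 to 200 CPM in C57BL/6J males. Most of the B and plasma cell sum was Xbp1, which other cells express too, with a median of 127 CPM in NZO/HlLtJ females and 153 CPM in NZO/HlLtJ males, against 113 CPM in C57BL/6J females and 127 CPM in C57BL/6J males. All 12 strain differences were positive among the B and plasma cell markers, with a median of 0.65, and so were 8 of 12 among the T and NK cell markers, with a median of 0.51. None of the B or T lists had a called member, and the macrophage list had 1 of 13, Csf1r, against 5.03% of all autosomal genes. Replicate 2 of the NZO/HlLtJ females on 44% fat held the high values, with Jchain at 91.1 CPM against a median of 2.59 CPM in that sex and strain. Without that library the strain difference was 2 for Dock2 and -3.17 for Ptpn22, both still called, and 942 genes were called in all. Leaving it out does not address immune cells in the other libraries. The part of immune cell RNA in the Dock2 and Ptpn22 results was not tested.

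The gained genes with a male bias in NZO/HlLtJ included Aldh1a7 (chr19:20692953-20727562), a paralog of the retinaldehyde dehydrogenase Aldh1a1. It had 2.7 to 6.31 CPM (median 4.48) in NZO/HlLtJ females and 56.5 to 152 CPM (median 91.7) in NZO/HlLtJ males. In C57BL/6J, Aldh1a7 had 4.85 to 12.6 CPM (median 8.02) in females and 5.59 to 10.4 CPM (median 8.12) in males. Aldh1a7 shared 13.8% of its 31-base words with Aldh1a1. Among the NZO/HlLtJ and C57BL/6J groups only the NZO/HlLtJ males were high, and the strain difference was -4.64 ± 0.23 (SE; edgeR adjusted p = 4.2e-17). CAST/EiJ males were high in Aldh1a7 as well, at 148 to 255 CPM (median 201). Aldh1a1 (chr19:20601961-20643462) itself, its neighbour on chromosome 19, reversed, with 61.5 to 91.1 CPM (median 76.5) in NZO/HlLtJ females and 184 to 318 CPM (median 234) in NZO/HlLtJ males, against 7.18 to 15.9 CPM (median 9.88) in C57BL/6J females and 3.45 to 6.28 CPM (median 4.52) in C57BL/6J males. All 4 groups were apart, with a strain difference of -2.91 ± 0.13 (adjusted p = 3.05e-19). Both genes were male-biased in CAST/EiJ, by -3.91 for Aldh1a7 and -2.59 for Aldh1a1. Zfp951 (chr5:104813169-104860070), a zinc finger gene, had 1.82 to 3.28 CPM (median 2.41) in NZO/HlLtJ females and 7.59 to 15.9 CPM (median 13) in NZO/HlLtJ males, against 1 to 2.28 CPM (median 1.65) in C57BL/6J females and 1.77 to 2.91 CPM (median 2.05) in C57BL/6J males (adjusted p of the strain difference = 1.64e-08). Its NZO/HlLtJ males were apart from the other groups. Cdkn1a (chr17:29090979-29100722), which encodes the cell cycle inhibitor p21, had 7.61 to 13.9 CPM (median 9.82) in NZO/HlLtJ females and 5.49 to 55.1 CPM (median 16.6) in NZO/HlLtJ males, against 7.65 to 15.5 CPM (median 11.1) in C57BL/6J females and 4.95 to 10.4 CPM (median 7.43) in C57BL/6J males. All its groups overlapped, and its strain difference of -1.51 ± 0.41 (adjusted p = 0.0216) was not called without replicate 1 of the NZO/HlLtJ males on 44% fat (-1.10, adjusted p = 0.0699). Its adjusted p ran from 0.0045 to 0.805 over 41 alternatives. It was the single called member of the 19 tubular injury and repair genes tested (5.26%, against 5.03% of all autosomal genes).

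**Figure D3:**
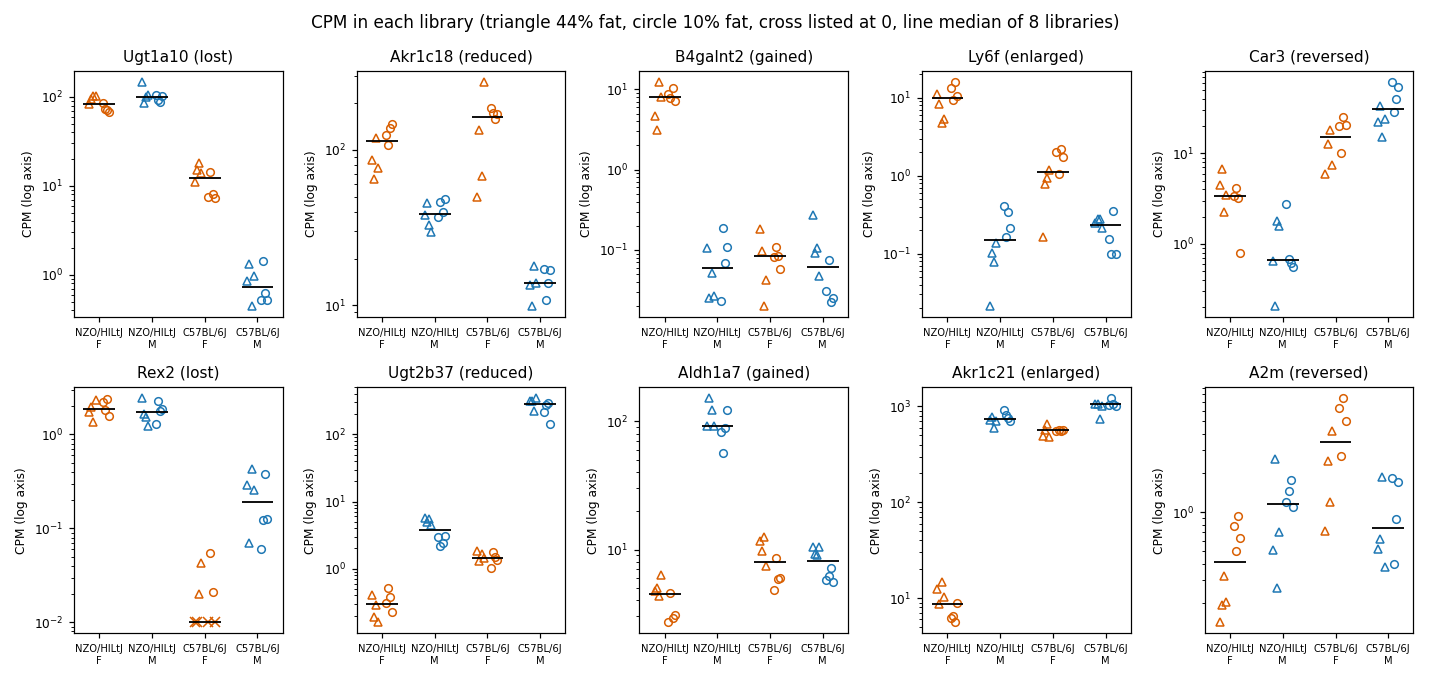
CPM (log axis) in each of 8 libraries per strain and sex for the first-ranked gene of each class and direction; triangles are 44% fat, circles 10% fat, crosses libraries at 0, and lines medians. Among the groups shown, Akr1c21 is low only in NZO/HlLtJ females, with a median of 8.75 CPM. Aldh1a7 is high only in NZO/HlLtJ males, with a median of 91.7 CPM, and Ugt1a10 is high in both NZO/HlLtJ sexes. CAST/EiJ, not shown, had a median of 0.312 CPM for Akr1c21 in females and 201 CPM for Aldh1a7 in males.

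Among the enlarged genes with a female bias, Ly6f (chr15:75268421-75272235), a member of the Ly6 family of surface proteins, had 4.7 to 16 CPM (median 9.93) in NZO/HlLtJ females and 0.0213 to 0.414 CPM (median 0.15) in NZO/HlLtJ males. In C57BL/6J, Ly6f had 0.162 to 2.17 CPM (median 1.13) in females and 0.0994 to 0.355 CPM (median 0.231) in males. The sexes were apart in NZO/HlLtJ and overlapped in C57BL/6J, with a strain difference of 3.56 ± 0.53 (SE; edgeR adjusted p = 1.37e-05). Slc24a3 (chr2:145167754-145642166), a sodium/calcium-potassium exchanger, had 8.79 to 23.7 CPM (median 17.9) in NZO/HlLtJ females and 0.858 to 1.65 CPM (median 1.3) in NZO/HlLtJ males, against 1.66 to 4.46 CPM (median 3.35) in C57BL/6J females and 1.23 to 1.92 CPM (median 1.58) in C57BL/6J males. The NZO/HlLtJ females were apart from the other groups, with a strain difference of 2.66 ± 0.25 (adjusted p = 5.43e-10). Cyp4a14 (chr4:115486200-115496142), a fatty acid hydroxylase, was similar in females, with 357 to 609 CPM (median 472) in NZO/HlLtJ and 339 to 594 CPM (median 447) in C57BL/6J. Its males had 0.76 to 27.4 CPM (median 2.43) in NZO/HlLtJ and 4 to 44.4 CPM (median 14.5) in C57BL/6J, and they overlapped. The strain difference was 2.32 ± 0.50 (adjusted p = 0.00303, and 0.000145 to 0.744 over 41 alternatives). Inmt (chr6:55170626-55175043), an N-methyltransferase of indole amines, was male-biased, with 2.12 to 4.05 CPM (median 2.79) in NZO/HlLtJ females and 279 to 501 CPM (median 363) in NZO/HlLtJ males, against 20.2 to 140 CPM (median 36.9) in C57BL/6J females and 543 to 769 CPM (median 661) in C57BL/6J males. All 4 groups were apart, and the strain difference was -3.17 ± 0.31 (adjusted p = 4.41e-09). The sex differences in CAST/EiJ were 5.90 for Ly6f, 1.81 for Slc24a3, 5.35 for Cyp4a14 and -2.42 for Inmt. CAST/EiJ females had 28.2 to 44.8 CPM of Ly6f.

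Of the reversed genes, Slc13a4 (chr6:35267957-35308131), a sulfate transporter, had 10.3 to 20.7 CPM (median 16.5) in NZO/HlLtJ females and 4.12 to 5.98 CPM (median 5.12) in NZO/HlLtJ males. In C57BL/6J, Slc13a4 had 3.37 to 5.07 CPM (median 4.34) in females and 4.6 to 7.19 CPM (median 5.43) in males. The NZO/HlLtJ females were apart from the other groups, and the strain difference was 2.02 ± 0.20 (SE; edgeR adjusted p = 4.78e-09). Itih1 (chr14:30929180-30943289), a heavy chain of a plasma protease inhibitor, had 7.47 to 9.26 CPM (median 8.29) in NZO/HlLtJ females and 5.78 to 7.95 CPM (median 7.08) in NZO/HlLtJ males, against 1.1 to 2 CPM (median 1.68) in C57BL/6J females and 3.58 to 5.45 CPM (median 4.56) in C57BL/6J males. The NZO/HlLtJ sexes overlapped, and the strain difference was 1.80 ± 0.16 (adjusted p = 2.7e-11). A2m (chr6:121635376-121679227), the protease inhibitor alpha-2-macroglobulin, had 0.143 to 0.928 CPM (median 0.412) in NZO/HlLtJ females and 0.26 to 2.53 CPM (median 1.15) in NZO/HlLtJ males, against 0.715 to 7.47 CPM (median 3.45) in C57BL/6J females and 0.376 to 1.87 CPM (median 0.755) in C57BL/6J males. Its sexes overlapped in both strains, with a strain difference of -3.30 ± 0.61 (adjusted p = 0.000393, and 3.12e-08 to 0.506 over 41 alternatives). Car3 (chr3:14863512-14872523), a carbonic anhydrase abundant in fat and muscle, had 0.798 to 6.71 CPM (median 3.42) in NZO/HlLtJ females and 0.204 to 2.74 CPM (median 0.661) in NZO/HlLtJ males, against 5.93 to 25.1 CPM (median 15.4) in C57BL/6J females and 15.4 to 62 CPM (median 31.2) in C57BL/6J males. Its sexes overlapped in both strains, and the strain difference was 3.05 ± 0.63 (adjusted p = 0.00158, and 1.03e-05 to 0.296 over 41 alternatives). The 9 adipocyte markers summed to 37.8 to 54.9 CPM in NZO/HlLtJ females and 31 to 58.3 CPM in NZO/HlLtJ males, against 35.7 to 61.5 CPM in C57BL/6J females and 33 to 50.3 CPM in C57BL/6J males. Most of each sum was Fabp4, with a median of 38.8 CPM in NZO/HlLtJ females and 31.8 CPM in NZO/HlLtJ males, against 39.5 CPM in C57BL/6J females and 35.4 CPM in C57BL/6J males. Taken gene by gene, 6 of the 9 were called female-higher in NZO/HlLtJ and 0 in C57BL/6J, against 4594 and 4550 of all 18195 autosomal genes. The median sex difference of the 9 was 1.56 in NZO/HlLtJ and 0.53 in C57BL/6J, the direction in which Car3 moved. For none of the 9 was the strain difference called, with a median of 1.03, and Adipoq was at 0 in at least 1 NZO/HlLtJ male library. The part of adipocyte RNA in the Car3 result was not tested.

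The genes best known for male-biased expression in the tubule were mostly male-biased in both strains. Of 20 such genes tested, 19 were called male-higher and 1 female-higher in each strain, with a median sex difference of -3.69 in NZO/HlLtJ and -4.01 in C57BL/6J. The strain difference was called in 6 (30%, against 5.03% of all autosomal genes), all with a smaller male bias in NZO/HlLtJ. Acsm3, an acyl-CoA synthetase for medium-chain fatty acids, had a sex difference of -7.66 in NZO/HlLtJ and -9.57 in C57BL/6J (strain difference 1.91 ± 0.31, edgeR adjusted p = 4.85e-05). Cyp7b1, an oxysterol 7-alpha-hydroxylase, had -4.91 in NZO/HlLtJ and -6.70 in C57BL/6J (adjusted p = 9.24e-05). Cyp2j13, an arachidonic acid epoxygenase family member, had -7.99 in NZO/HlLtJ and -8.95 in C57BL/6J, and Slc7a13, a cystine and acidic amino acid transporter, had -8.77 in NZO/HlLtJ and -9.62 in C57BL/6J. On the authors' deposited matrix the strain differences of Cyp2j13 and Slc7a13 were not called. For these 4 genes the medians in females were higher in NZO/HlLtJ than in C57BL/6J. Female-biased tubule genes had 4 of 7 called, 3 higher and 1 lower. Slc22a7, an organic anion transporter, was gained at 1.36 in NZO/HlLtJ and 0.24 in C57BL/6J, and Cyp4a10 was enlarged at 1.99 in NZO/HlLtJ and 0.81 in C57BL/6J, with 44.9% of its 31-base words found in other genes.

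Of 20 steroid metabolism genes tested, 5 were called higher and 4 lower, against 2.63% and 2.4% of all autosomal genes. The 9 include Akr1c21, Akr1c18, Akr1c14 and Cyp7b1, which belong to other lists as well. Hsd3b2, a 3-beta-hydroxysteroid dehydrogenase, was lost, with 469 to 598 CPM (median 551) in NZO/HlLtJ females and 422 to 780 CPM (median 533) in NZO/HlLtJ males, against 60.8 to 93 CPM (median 69.7) in C57BL/6J females and 145 to 259 CPM (median 183) in C57BL/6J males. The NZO/HlLtJ sexes overlapped and lay above both C57BL/6J sexes (edgeR adjusted p = 1.06e-13), and 36.3% of its 31-base words occurred in other genes. Srd5a1, a steroid 5-alpha-reductase, was reduced to -0.42 in NZO/HlLtJ, against -1.32 in C57BL/6J (adjusted p = 3.37e-06). Glutathione S-transferases had 9 of 22 called, 6 higher and 3 lower. Gsta3 was gained, with 26.9 to 37.5 CPM (median 30.5) in NZO/HlLtJ females and 7.36 to 11.9 CPM (median 9.37) in NZO/HlLtJ males, against 45.3 to 76 CPM (median 59.7) in C57BL/6J females and 42 to 59.8 CPM (median 49.9) in C57BL/6J males (adjusted p = 1.23e-08). Gsta2 was enlarged and Gsta4 reduced, with sex differences in NZO/HlLtJ of 4.06 and 1.31, against 2.03 and 2.51 in C57BL/6J, in that order. Of the 31-base words of Gsta2, 60.7% occurred in other genes, so its value is uncertain. Sult1a1, a sulfotransferase, was enlarged at 1.94 in NZO/HlLtJ and 0.38 in C57BL/6J (adjusted p = 2.51e-06).

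Lipid genes moved in small groups. Over all autosomal genes 5.03% were called, 2.63% higher and 2.4% lower. Of 30 fatty acid oxidation genes and PPAR alpha targets, 6 were called, all with a higher female-minus-male difference in NZO/HlLtJ. They included Acaa2, a mitochondrial thiolase, at 1.23 in NZO/HlLtJ and 0.62 in C57BL/6J, and Acadl, the long-chain acyl-CoA dehydrogenase, at 0.07 in NZO/HlLtJ and -0.46 in C57BL/6J. Cyp4a14, Cyp4a10, Cyp4a31 and Cyp4b1 lie side by side on chromosome 4 from 115486200 to 115647723, where 4 of 5 genes tested were called. The female-minus-male difference of each of these 4 was higher in NZO/HlLtJ, and Cyp4b1, the male-biased one, was reduced. The call of Cyp4b1 was lost without C57BL/6J male replicate 1 on 10% fat (0.82, adjusted p = 0.0509) or C57BL/6J female replicate 4 on 44% fat (0.81, adjusted p = 0.0539), and its adjusted p ran from 0.00274 to 0.571 over its alternatives. Fatty acid synthesis and desaturation genes had 5 of 17 called, 2 higher and 3 lower. Scd1, the stearoyl-CoA desaturase, was reduced, at 1.94 in NZO/HlLtJ and 2.83 in C57BL/6J. Fasn, the fatty acid synthase, was gained at 0.60 in NZO/HlLtJ and 0.07 in C57BL/6J. Neither Scd1 nor Fasn was called in runs 81 and 89 together. Triglyceride and lipid droplet genes had 4 higher and 2 lower of 24. Plin2, which coats lipid droplets, reversed, with 18.5 to 29.5 CPM (median 22.5) in NZO/HlLtJ females and 11.2 to 22.3 CPM (median 14.2) in NZO/HlLtJ males, against 49.5 to 74.5 CPM (median 55.7) in C57BL/6J females and 56.1 to 76.6 CPM (median 72) in C57BL/6J males (strain difference 0.90 ± 0.12, edgeR adjusted p = 1.24e-06). Lpl, the lipoprotein lipase, also reversed, at 0.75 in NZO/HlLtJ and -0.86 in C57BL/6J. Both are also expressed by adipocytes, whose markers, given with Car3, were female-higher in NZO/HlLtJ in 6 of 9, and the part of adipocyte RNA in these results was not tested. Cholesterol genes had 3 higher and 2 lower of 20, with Idi1, an isomerase of sterol synthesis, reduced to -1.10 in NZO/HlLtJ, against -2.56 in C57BL/6J (adjusted p = 7.4e-08).

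Among the nephron segment lists, that of the thick ascending limb held the most called markers. Of its 7 markers, 4 were called and all were enlarged, against a call in 5.03% of all autosomal genes. Umod, the kidney's most abundant urinary protein, had a sex difference of 0.69 in NZO/HlLtJ and 0.42 in C57BL/6J (strain difference 0.27 ± 0.07, edgeR adjusted p = 0.0179). Slc12a1, the cotransporter targeted by loop diuretics, had 0.70 in NZO/HlLtJ and 0.32 in C57BL/6J, and Egf and Cldn19 had strain differences of 0.38 ± 0.09 and 0.47 ± 0.10. The summed level of the 7 markers was 7040 to 8280 CPM (median 7930) in NZO/HlLtJ females and 4130 to 5360 CPM (median 4830) in NZO/HlLtJ males, against 7250 to 9410 CPM (median 8750) in C57BL/6J females and 5880 to 7240 CPM (median 6500) in C57BL/6J males. The NZO/HlLtJ males were apart from the other 3 groups. The strain differences differed in size between the runs of sample ID numbers. In run 77 and in runs 81 and 89, in that order, they were 0.28 and 0.25 for Umod, 0.62 and 0.25 for Slc12a1, 0.71 and 0.37 for Cldn19 and 0.41 and 0.38 for Egf. Of these only Egf in runs 81 and 89 was called, with an edgeR adjusted p of 0.0249, and the adjusted p over all alternatives reached 0.793 for Umod, 0.399 for Slc12a1, 0.0882 for Cldn19 and 0.607 for Egf. In bulk tissue, fewer cells of a type and less RNA per cell cannot be told apart. Of the proximal tubule (12 tested), distal convoluted tubule (7), podocyte (8) and endothelial (8) lists, none had a called member, and the intercalated cell list had 2 of 10. In lists this short, no call is close to the 5.03% called over all autosomal genes. The renin-angiotensin genes had 6 of 8 called, 3 higher and 3 lower. Agt, the precursor angiotensinogen, had 4.12 to 5.63 CPM (median 4.5) in NZO/HlLtJ females and 0.524 to 1.56 CPM (median 0.624) in NZO/HlLtJ males, against 58.8 to 77.2 CPM (median 63.5) in C57BL/6J females and 35.3 to 48.8 CPM (median 42.5) in C57BL/6J males. All 4 groups were apart, and the sex difference was enlarged by 1.90 ± 0.23 (adjusted p = 3.03e-07). Mas1, a receptor for angiotensin-(1-7), was enlarged towards males, at -3.36 in NZO/HlLtJ and -1.55 in C57BL/6J.

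**Figure D4:**
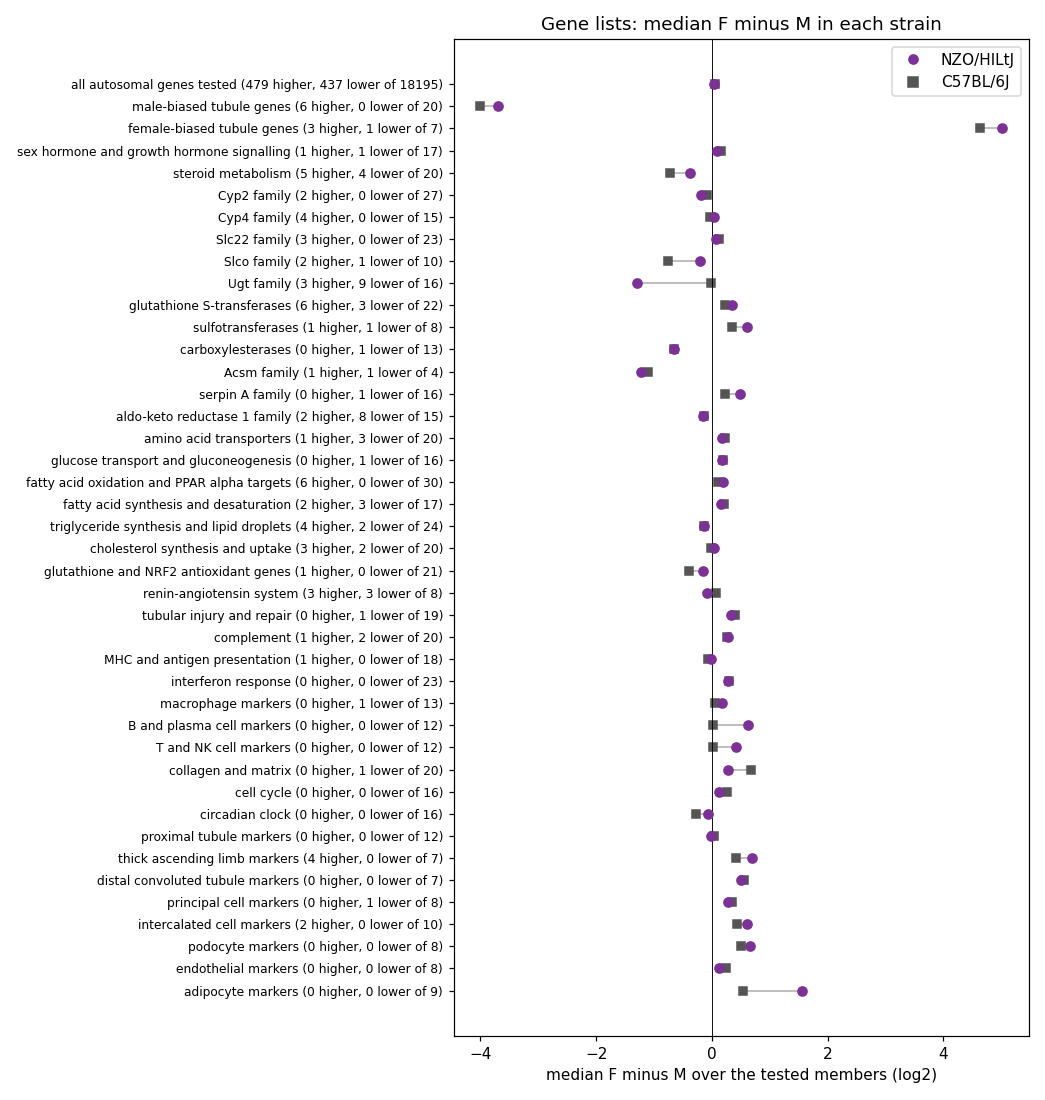
Median female-minus-male log2 difference over the tested members of each gene list in NZO/HlLtJ (circles) and C57BL/6J (squares), with the number of members called higher and lower in NZO/HlLtJ. The Ugt family lies at -1.29 in NZO/HlLtJ, male-biased genes at -3.69 in NZO/HlLtJ and -4.01 in C57BL/6J.

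No gene's strain difference was called as dependent on diet. Within 44% fat, 276 genes were called (1.52%), and within 10% fat 378 (2.08%). In NZO/HlLtJ, run 81 of the sample ID numbers held only females on 10% fat and males on 44%, and run 89 the reverse. Within a diet, part of the NZO/HlLtJ sex difference is therefore also a difference between these runs, adjusted only by the added run term. The difference between these diets gave 0 called genes in edgeR, with 816 at an unadjusted p under 0.05, and 0 in DESeq2's Wald test (888 unadjusted), limma-voom (984 unadjusted) and limma on the deposited matrix (787 unadjusted). Because the genes were called on the mean over both diets, agreement of their signs between the diets says nothing about diet. Among the named genes, the smallest unadjusted p for the diet dependence was that of Akr1c21, at 0.00212, with a strain difference of -5.01 ± 0.21 on 44% fat and -5.96 ± 0.21 on 10% fat (SE, edgeR). Ly6f had 4.96 ± 0.77 on 44% fat and 2.16 ± 0.70 on 10% fat, where it was not called (unadjusted p of the dependence = 0.0101, edgeR). Col23a1 had a strain difference of 1.32 ± 0.25 on 44% fat and 2.16 ± 0.25 on 10% fat, and Cyp4a14 had 1.23 ± 0.65 on 44% fat and 3.41 ± 0.78 on 10% fat, the only diet on which it was called, with an adjusted p of 0.997 for the difference between diets in all 4 genes (edgeR). Among autosomal genes averaging 1 or more in log2 CPM whose symbol is no predicted or clone name, the 3 with the smallest p for the diet dependence were Kctd6, at -0.64 ± 0.16, Mast4, at -0.59 ± 0.17, and Mcat, at 0.51 ± 0.15 (44% minus 10% fat, SE), each with an edgeR adjusted p of 0.997. In all 3 the diets gave opposite signs, with -0.41 for Kctd6, -0.21 for Mast4 and 0.32 for Mcat on 44% fat, and 0.23 for Kctd6, 0.38 for Mast4 and -0.18 for Mcat on 10% fat.

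**Figure D5:**
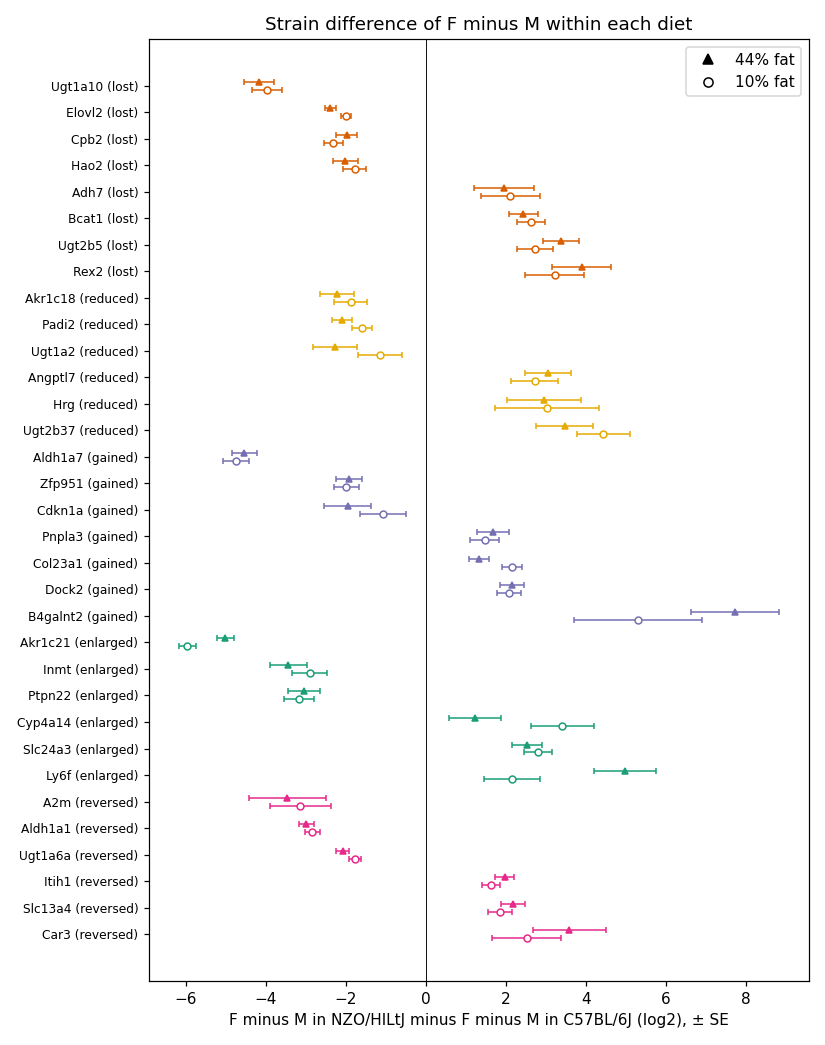
Strain difference of the female-minus-male difference (log2, ± SE) of each of the 33 named genes on 44% fat (triangles) and 10% fat (circles). The genes were chosen on the mean over both diets, and the gap between the symbols is widest for Ly6f, at 4.96 on 44% fat and 2.16 on 10% fat.

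The sample ID numbers fall in 3 runs, which the labels do not explain, and the strain difference was recomputed within them. In run 81 the NZO/HlLtJ females ate 10% fat and the males 44%, and in run 89 the reverse, so the sex difference of NZO/HlLtJ was taken over runs 81 and 89 together. Each of these fits also held the CAST/EiJ libraries of its runs. Run 77 had 8 NZO/HlLtJ and 4 C57BL/6J libraries, with only 1 library in each C57BL/6J group. Its calls are therefore not counted here, though the ranges of adjusted p over alternatives include it. Runs 81 and 89, with 8 NZO/HlLtJ and 12 C57BL/6J libraries, gave 442 called genes, of which 400 were among the 916. None of the 33 named genes changed sign in either. The 916 and the 33 were picked from a fit that held all these runs, so such agreement is partly built in and is no replication. Ugt1a10 had a strain difference of -4.12 in run 77 and -4.00 in runs 81 and 89, Akr1c21 had -5.61 and -5.28, Aldh1a7 had -4.39 and -4.75, and Elovl2 had -2.15 and -2.17, in that order of runs. Of the 33 genes, 27 were called in runs 81 and 89. Ugt1a2, Hrg, Cyp4a14, Car3, A2m and Cdkn1a were not called there. Ugt1a2 had -0.94 and -2.09, Cyp4a14 had 2.70 and 2.33, Car3 had 4.17 and 2.50, and A2m had -3.20 and -2.67, in the same order.

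CAST/EiJ, whose own sex difference was called in 8658 genes (47.6%), was set beside the classes. Where the signs of the 2 strains were opposed, CAST/EiJ was called with the NZO/HlLtJ sign in 12 and the C57BL/6J sign in 44 of 112 lost genes. For gained genes it was called with the NZO/HlLtJ sign in 42 and the C57BL/6J sign in 13 of 118. For the 80 reversed genes the counts were 27 and 26, in the same order. By the class rule, lost genes have no called sign in NZO/HlLtJ and gained genes none in C57BL/6J. The splits of the lost and gained genes therefore do not show which strain CAST/EiJ resembles. Gaps between the strains were compared within each sex as well. In 397 of the 916 genes, NZO/HlLtJ differed from C57BL/6J in both sexes, in 192 in females and not males, in 323 in males and not females, and in 4 in neither. Over all autosomal genes the strains differed in 38% in females and 42.7% in males. The gap between the strains was larger in females in 312 of the 916, and the same count over all autosomal genes was not taken. The 916 were called on the difference between the female and male gaps, so a gap in at least 1 sex is favoured by that choice.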

How the data were processed

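Kidney RNA was sequenced in 47 libraries made with the KAPA mRNA HyperPrep kit, per the labels' protocols. The authors deposited expected counts per gene, of which 25.9% of values were not whole, and a variance-stabilized log2 matrix. The submitters' processing notes name GRCm38 and DESeq2, and the aligner, the counting tool and the use of strand are not given in the sources used here. Whether reads of overlapping or antisense genes were told apart is therefore not known.

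Expected counts were rounded and filtered with filterByExpr in edgeR 4.0.16 (R 4.3.3), which left 18786 of 22474 genes and dropped 3688. All 12 groups of strain, sex and diet were fitted together after TMM scaling, with the 3 runs of sample ID numbers as an added term and 33 residual degrees of freedom. The robust quasi-likelihood test gave p-values, adjusted by Benjamini-Hochberg over all 18786 genes, and genes were called at an adjusted p under 0.05. The strain difference is female minus male in NZO/HlLtJ less female minus male in C57BL/6J, and differences carry standard errors on the log2 scale. CPM levels use TMM library sizes and are not corrected for gene length, so they are not compared between genes. They are given as the range over the 8 libraries of a strain and sex, and totals of 34.4 M to 58.4 M counts limit the precision of low values. The steps were tested on simulated data.

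The named genes are those with the largest strain difference per class and direction among called genes with an average log2 CPM of at least 1, up to 4 per direction for lost and gained genes and 3 for the others. Of the genes this rule picks, 1 is not reported here, and 33 are. From each of the 43 gene lists, no more than 4 members, taken in order of adjusted p, were eligible. The members and lists were chosen with earlier results of these data known. Xist, high in every female library, and Ddx3y, high in every male library, fitted the sex labels. Shared sequence was measured as the share of 31-base words of a gene's GENCODE M21 transcripts found in another gene. Promoters are from RefSeq GRCm38.p6, with windows for 30 of the 33 named genes. Alternatives were DESeq2 size factors, no filter, DESeq2 1.42.0, limma-voom and limma on the deposited matrix (limma 3.58.1), no run term, the 32 libraries alone, runs taken separately, and each library left out in turn.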

Additional observations from a re-analysis of the deposited data

Results flagged for a closer look

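The 916 autosomal genes with a called strain difference are themselves a difference between groups, tested as an interaction in edgeR.

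Among the named genes, 264 sets of 4 libraries (1 strain, sex and diet) were examined for a single library far from the other 3 by Dixon's criterion, and 11 stood out. Chance flags about 1 in 20 sets. In NZO/HlLtJ they were Bcat1 at 67.3 CPM in male replicate 3 on 10% fat, Adh7 at 5.1 CPM in female replicate 2 on 44% fat, Car3 at 2.74 CPM in male replicate 1 on 10% fat, and Aldh1a1 at 91.1 CPM in female replicate 4 on 44% fat. In C57BL/6J, male replicate 3 on 44% fat was the source of 4, with Ugt2b5 low at 3.16 CPM and with Hrg high at 21.7 CPM, Dock2 at 7.0 CPM and A2m at 1.87 CPM. Replicate 2 on 10% fat was high for Ugt1a10, at 14.4 CPM in C57BL/6J females and 1.42 CPM in C57BL/6J males, and for B4galnt2 at 0.0745 CPM in C57BL/6J males. Of these 10 genes, Adh7 lost its call without the library named here; Hrg lost its call only without other libraries, and the rest kept theirs in every fit that left out 1 library.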

How the results depend on the processing

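The 33 named genes and 66 further list genes kept their direction under every alternative. They were picked as called genes in the same libraries, so a kept direction is partly built in. Across scaling, filter, test and sample alternatives, the 916 called genes became 905 with DESeq2 size factors (878 shared), 835 without a filter (834), 1134 in DESeq2's Wald test (895), 1315 in limma-voom (860), 999 in limma on the deposited matrix (831), 924 without the run term (870) and 950 from the 32 libraries alone (815). Lost genes numbered 308 in limma-voom.

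Run 77 alone gave 92 genes, 51 higher and 41 lower, with 15 lost, 17 reduced, 29 gained, 18 enlarged and 13 reversed. Runs 81 and 89 gave 442 called genes, 262 higher and 180 lower, with 115 lost, 98 reduced, 88 gained, 90 enlarged and 51 reversed. Of the 99 named and list genes, 33 were not called in runs 81 and 89. Among them were Scd1, Fasn, Col4a1, Masp1, Slc26a4, Cyp2j13 and Slc7a13. These fits hold fewer libraries.

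Leaving out each of the 32 libraries gave 764 to 1013 called genes, 406 to 538 higher and 358 to 479 lower, with 148 to 232 lost, 171 to 222 reduced, 174 to 255 gained, 184 to 287 enlarged, 70 to 90 reversed and 0 to 0 dependent on diet. Of the 33 named genes 30 were called in all 32 fits, and 11 list genes (Cyp2a5, Slc22a28, Slco2a1, Slc7a12, Cfb, Slc5a10, Atp6v1b1, Csf1r, Serpina1f, Igf1 and Igfbp3) in 7 to 21. No paired analysis was possible because replicates were numbered within groups in accession order and carry no pairing. Genes under about 1 CPM rest on few counts and have wide errors.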

Other observations

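Some lists showed few or no called strain differences. None of 23 interferon response genes, 16 cell cycle genes or 16 circadian clock genes was called (edgeR; adjusted p under 0.05 in 5.03% of all autosomal genes). Of 20 complement genes 3 were called. C4a, a paralog of complement C4, was enlarged, with 2.71 to 4.78 CPM (median 3.19) in NZO/HlLtJ females and 28.1 to 75.7 CPM (median 63.3) in NZO/HlLtJ males, against 0.256 to 0.596 CPM (median 0.416) in C57BL/6J females and 0.845 to 2.02 CPM (median 1.04) in C57BL/6J males (strain difference -2.57 ± 0.28, edgeR adjusted p = 1.37e-08). All 4 groups were apart, and 43.3% of its 31-base words occurred in other genes. Masp1, a protease of the lectin pathway, was lost, at -0.26 in NZO/HlLtJ and 0.94 in C57BL/6J. Among the Ugt genes outside chromosome 1, Ugt2b34 was enlarged towards females, at 3.70 in NZO/HlLtJ and 1.68 in C57BL/6J (adjusted p = 7.71e-13).

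Of 20 collagen and matrix genes, females were called higher in 9 in NZO/HlLtJ and in 19 in C57BL/6J, against 4594 and 4550 of all 18195 autosomal genes. Whether these list counts differ was not tested. The strain difference was called in Col4a1 alone (5%, against 5.03% of all autosomal genes). Its sex difference was -0.09 in NZO/HlLtJ and 0.32 in C57BL/6J (edgeR adjusted p of the strain difference = 0.00804). A basolateral water channel of principal cells, Aqp4, reversed at -0.28 in NZO/HlLtJ and 0.73 in C57BL/6J. The intercalated cell anion exchanger pendrin, Slc26a4, was enlarged at 0.71 in NZO/HlLtJ and 0.33 in C57BL/6J. Acsm1, an acyl-CoA synthetase near Umod on chromosome 7, reversed at -0.33 in NZO/HlLtJ and 0.77 in C57BL/6J (adjusted p = 3.29e-12).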
